A study of Coprinopsis cinerea with 29 samples.

Results

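Young lamellae of the mushroom Coprinopsis cinerea were compared with stage 2 primordia, the last stage sampled before the fruiting body was dissected. The comparison rests on 7 of 29 libraries, chosen by their titles, namely young lamellae (YFB_L, n = 3) and stage 2 primordia (P2, n = 4). Changes of the lamellae alone were separated from those that young cap (YFB_C, n = 3) and young stipe (YFB_S, n = 3) showed as well. All 9 groups came from strain #326 (A43mut B43mut pab 1-1), so every library carries mutations in both mating-type factors, which let the fungus fruit without a mate, and an auxotrophy for p-aminobenzoic acid. No other genotype or treatment was included. Colonies were grown in the dark at 37 °C for 5 days and were then kept at 25 °C in cycles of 12 h of light and 12 h of darkness for fruiting. The other groups, used here only to follow the same gene models further, were vegetative mycelium (VM, n = 3), secondary hyphal knots (H, n = 3), stage 1 primordia (P1, n = 4), and 2 parts of the fruiting body, its cap with lamellae (FB_CL, n = 3) and its stipe (FB_S, n = 3). The labels name no tissue for the primordia, so 1 tissue is compared with whole, undissected samples as far as the labels tell. A difference between stages and a difference between tissues cannot be told apart in the comparison with P2 alone.

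Lamellae are the gills on the underside of the cap. Their surface, the hymenium, carries the basidia, the cells in which nuclei fuse, meiosis takes place and spores are borne, and in Coprinopsis these steps run in near synchrony within a cap. The hymenium also holds sterile cells, among them paraphyses, which separate the basidia, and cystidia, which span the space between gills. Cap and stipe tissue carry no basidia, and the stipe lifts the cap by elongation of its cells.

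The deposited files give each gene model a number and neither a name nor a position, and 0 of 14242 identifiers matched the reference table. Markers of basidia, of other hyphae or of any pathway could therefore not be looked up, and the label of the lamellae was not checked against them. The filter on low counts left 11990 of the 14242 gene models for testing. Levels are given as CPM, the read count scaled to the TMM-adjusted library total, and levels compared between gene models as RPKM, the same value per kilobase. A gene model was called where the edgeR quasi-likelihood test gave an adjusted p under 0.05 and the change was at least 2-fold. The 7 libraries held 16452597 to 32199674 counted reads. The labels do not say from which cultures the replicates came, so p-values measure the spread between these libraries only.

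Replicate 1 of the lamellae stood apart from its group. Across gene models, which are not independent replicates, lamellae replicates 2 and 3 correlated at 0.991 in log2 CPM, and replicate 1 reached 0.885 and 0.867 with them. The P2 libraries correlated at 0.964 to 0.975. In replicate 1, 866 gene models were at least 4-fold above both other lamellae libraries and 176 at least 4-fold below both, whereas replicate 2 gave 1 and 2 and replicate 3 gave 0 and 21. The median SD of log2 CPM over the gene models was 0.48 in lamellae, 0.31 in P2, 0.46 in young cap and 0.34 in young stipe. It was 0.13 in lamellae without replicate 1. The 10 most abundant gene models took 9.03% of the reads of replicate 1 and 4.38% and 4.51% of those of replicates 2 and 3, and its TMM factor was 0.872 against 1.32 and 1.36. The counts of calls and classes are therefore given with and without replicate 1.

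Young lamellae differed from stage 2 primordia at a large share of the gene models, with both rises and falls. Of 11990 gene models 2219 (18.5%) were higher and 1919 (16.0%) lower, 34.5% in all, with a median log2 change of 1.85 among the higher and -2.23 among the lower. Without replicate 1, 1911 (15.8%) were higher and 2230 (18.4%) lower of 12090 tested, 34.3% in all. The total hardly moved between the fits (4138 and 4141), but the balance turned. Of the 2219 that rose, 1610 (72.6%) also rose without replicate 1, and of the 1919 that fell, 1701 (88.6%) also fell. Without it 301 further gene models rose and 529 further ones fell, and 24 of those higher with replicate 1 were lower without it. CPM ranges of the groups did not overlap for 1794 (80.8%) of the higher and 1756 (91.5%) of the lower gene models, against 44.9% of all tested. In bulk tissue, fewer cells of a type and less RNA per cell cannot be told apart. The balance also turned with the processing. Library size alone gave 1608 higher and 2407 lower, with the median over all gene models at -0.14 on the log2 scale against 0.11 with TMM. A fit to the 7 libraries alone gave 1703 and 1832, limma on log2(RPKM + 0.1) 1888 and 2002, and a 4-fold threshold 994 and 1082.

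The calls were sorted by what cap and stipe did against the same primordia. Shared meant called in the same direction there. Lamellae alone meant called in the same direction in neither, and also called in that direction in lamellae against cap and in lamellae against stipe, which are the tests of the difference between the tissues. Of all tested gene models, 22.0% were higher and 20.7% lower in cap than in P2, and 17.8% higher and 21.1% lower in stipe. In lamellae 23.7% were higher and 19.9% lower than in cap, and 23.4% higher and 18.1% lower than in stipe. Without replicate 1 these shares were 22.5% and 21.2% for cap and 18.2% and 22.0% for stipe against P2, and 22.6% and 24.3% for lamellae against cap and 20.8% and 21.6% against stipe. The lamellae alone held 832 (37.5%) of the higher and 462 (24.1%) of the lower gene models. Cap and stipe both shared 469 (21.1%) of the rises and 562 (29.3%) of the falls. The cap without the stipe shared 407 rises and 268 falls, and the stipe without the cap 246 rises and 391 falls. The remaining 265 rises and 236 falls were called that way in neither tissue but were not called against both of them, and are left unresolved. The 3 comparisons share the P2 libraries. With cap and stipe set against P1 instead, which those tissues then share with each other but not with the lamellae, the lamellae alone held 812 rises and 454 falls, and cap and stipe shared 493 and 547.

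**Figure D1:**
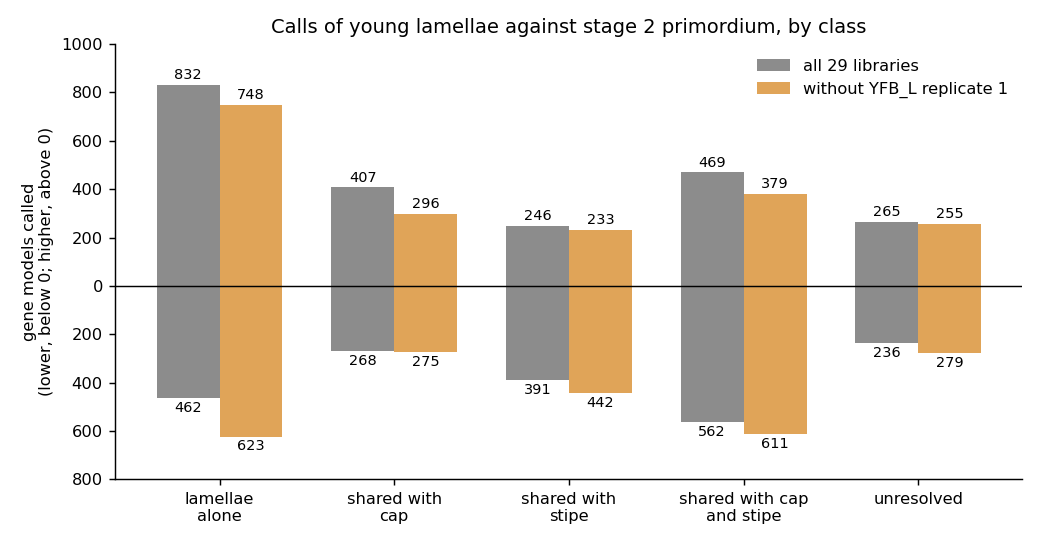
Bars give the number of gene models called in young lamellae against stage 2 primordia in each class, rises above and falls below 0, with all 29 libraries in grey and without lamellae replicate 1 in orange. Lamellae-alone rises went from 832 to 748 and falls from 462 to 623, so that the excess of rises shrank without that library.

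Both directions of the lamellae-alone class moved with replicate 1, the rises downward and the falls upward in number without it. Then 748 rises and 623 falls were in the class. Membership was the same in both fits for 593 of the 832 rises (71.3%, and 79.3% of the 748) and for 407 of the 462 falls (88.1%, and 65.3% of the 623). A further 168 rises and 21 falls were not called at all without it. The median log2 change of the 832 rises was 2.13 (quartiles 1.51 and 3.09) and that of the 462 falls -2.15 (quartiles -2.94 and -1.56). At least 4-fold changes made up 452 of the rises and 255 of the falls. The rises came from a low level in the primordium, with a median of 4.05 RPKM in P2 and 20.9 RPKM in lamellae, where the median over all tested gene models was 16.3 RPKM in P2. The falls went from a median of 20.5 to 4.25 RPKM.

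Gene model 391326, a short model of 342 bases, led the rises of the lamellae alone. Its level was 37.4, 59.6, 14.2 and 126 CPM in the 4 P2 libraries and 14268, 10767 and 11586 CPM in the 3 lamellae libraries. The groups did not overlap, and it alone took 1.24%, 1.42% and 1.58% of all counted reads of lamellae replicates 1 to 3. The log2 change was 7.68 ± 1.15 (SE; edgeR adjusted p = 8.63e-06), 7.55 without lamellae replicate 1 and 8.36 without P2 replicate 4. In the cap it stood at 277, 237 and 240 CPM, all above the P2 libraries, without being called there (log2 change 2.08 ± 0.92 SE; edgeR adjusted p = 0.0597). The stipe libraries were spread, at 418, 7.78 and 203 CPM in replicates 1 to 3. Lamellae lay above cap by a log2 difference of 5.60 ± 1.19 (SE), with an edgeR adjusted p of 0.00039, and above stipe by 5.86 ± 1.21 (SE), with one of 0.000313. It was at 6.70 ± 2.25 CPM in mature cap with lamellae (SD, n = 3) and 0.401 ± 0.491 CPM in the mature stipe (SD, n = 3), below every young lamellae library.

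Gene model 468170 rose from 2.59, 3.79, 3.22 and 4.45 CPM in P2 to 163, 320 and 281 CPM in lamellae. Replicate 1 was the lowest of the 3, and even it lay far above every P2 library. The log2 change was 6.18 ± 0.62 (SE; edgeR adjusted p = 3.32e-08) and 6.42 without replicate 1. Its cap level of 6.64 ± 4.58 CPM (SD, n = 3) and stipe level of 5.63 ± 4.71 CPM (SD, n = 3) were not called against P2 (edgeR adjusted p = 0.153 and 0.289). The stipe replicates again stood at different levels, with 10.6, 1.26 and 5.01 CPM. In the mature parts, cap with lamellae and stipe stood at 43.7 ± 14.8 and 37.8 ± 12.3 CPM (SD, n = 3 each).

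Gene model 496437 led the falls of the lamellae alone. It stood at 477, 290, 262 and 200.4 CPM in P2 and at 0.320, 0.122 and 0.159 CPM in the lamellae libraries, a total of 17 reads. The log2 change was -10.54 ± 1.44 (SE; edgeR adjusted p = 2.77e-06) and -11.03 without replicate 1. The cap held 1816 and 1828 CPM in replicates 1 and 2 and 5.62 CPM in replicate 3, so cap replicate 3, the library nearest to the lamellae here, still exceeded all 3 of them. In the stipe the values were 73.3, 12.4 and 184 CPM, all below the P2 libraries. Neither tissue was called against P2 (edgeR adjusted p = 0.0584 in cap and 0.11 in stipe). Before the primordia it was near 0 in mycelium, at 0.290 ± 0.192 CPM (SD, n = 3), and at 146 ± 62.1 CPM in hyphal knots (SD, n = 3). The mature parts were also below every P2 library, at 9.71 ± 0.381 CPM in cap with lamellae and 19.0 ± 5.64 CPM in stipe (SD, n = 3 each).

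Gene model 435526 was the other leading fall. Its P2 values of 837, 340, 451 and 476 CPM went to 2.42, 5.68 and 9.10 CPM in lamellae, again with no overlap. The log2 change was -6.52 ± 0.73 (SE; edgeR adjusted p = 1.75e-07) and -6.15 without replicate 1. Cap and stipe stood at 517 ± 416 and 642 ± 295 CPM (SD, n = 3 each), with log2 changes against P2 of -0.02 ± 0.54 and 0.29 ± 0.54 (SE), neither of them called. Mature cap with lamellae stood at 421 ± 62.7 CPM and mature stipe at 25.8 ± 4.01 CPM (SD, n = 3 each).

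**Figure D2:**
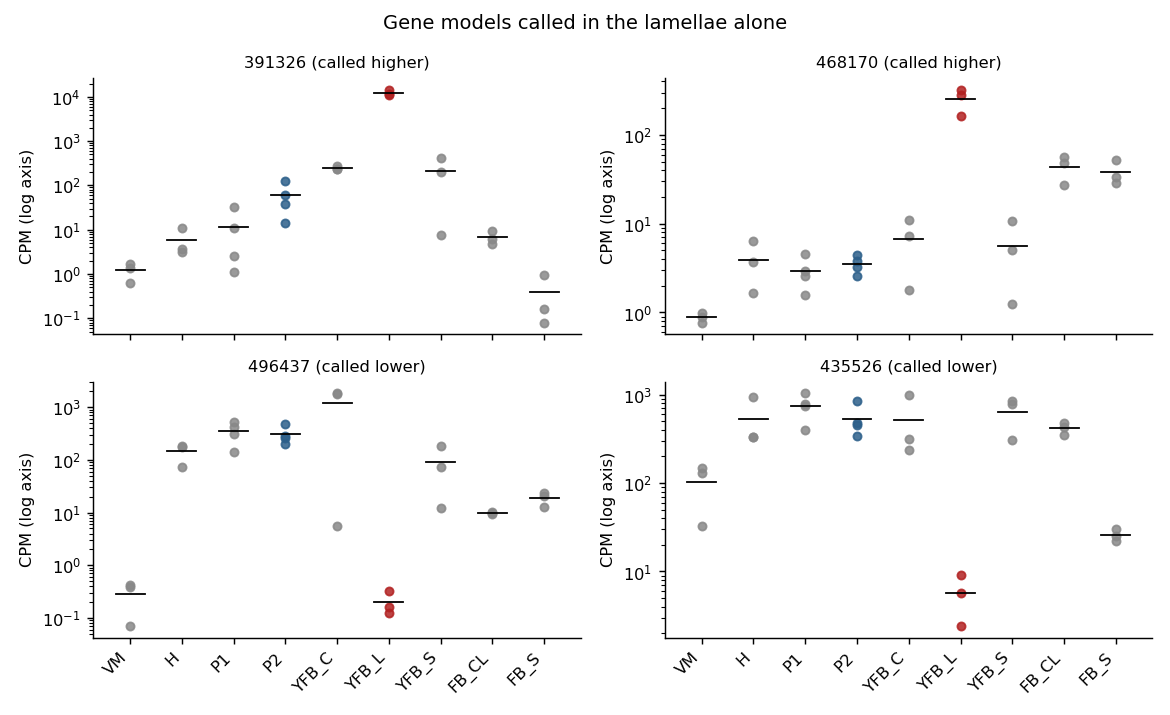
Each panel shows 1 gene model of the lamellae-alone class, with a point per library on a log axis of CPM and a black bar at the group mean, lamellae in red and P2 in blue. Gene models 391326 and 468170 peak in the 3 lamellae libraries, and 496437 and 435526 have their lowest values there among the young tissues and P2.

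Most of the rise of the lamellae-alone gene models was not seen in mature cap with lamellae or in mature stipe. No library holds mature lamellae without cap. A change in the lamellae with maturity and the presence of cap tissue therefore cannot be told apart, for the rises or the falls. For the 593 members found in both fits, the median member stood 1.61, 2.11 and 2.18 above its P2 mean in lamellae replicates 1 to 3 on the log2 scale. On the same scale it stood at 0.11 ± 0.084 in mature cap with lamellae and at -0.57 ± 0.014 in mature stipe (SD, n = 3 each). Cap and stipe of the young body lay below P2 as well, at -0.59 ± 0.39 and -0.54 ± 0.40 (SD, n = 3 each), and mycelium above it at 0.52 ± 0.054 (SD, n = 3). These members took 1.31% ± 0.157 of all counted reads in P2 (SD, n = 4) and 5.67%, 7.49% and 8.03% in lamellae replicates 1 to 3, and 1.32% ± 0.164 in mature cap with lamellae (SD, n = 3). The 407 falls had a median of -2.12 ± 0.32 in young lamellae and of -0.15 ± 0.083 in mature cap with lamellae (SD, n = 3 each). In the young cap their median was 0.91 ± 0.17 (SD, n = 3), and they took 18.0% ± 2.41 of its reads (SD, n = 3), against 8.22% ± 0.435 in P2 (SD, n = 4) and 1.03% ± 0.136 in lamellae (SD, n = 3). The classes were chosen on the young tissues and P2, and all these medians are relative to P2, so they are descriptions.

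**Figure D3:**
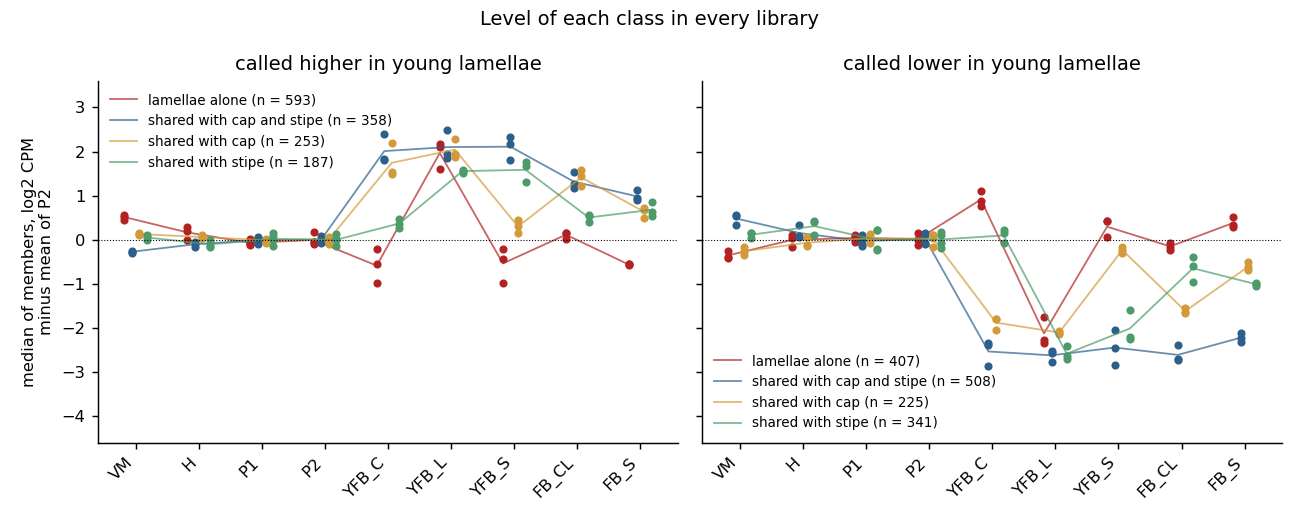
Points give, for each library, the median over the members of a class (those found with and without lamellae replicate 1) of log2 CPM minus the gene model's mean in P2, and lines join the group means. Lamellae-alone members lie close to 0 in the mature cap with lamellae, which holds cap tissue too. The falls shared with cap and stipe stay below -2 in both mature parts.

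Within the mature fruiting body, the called lamellae-alone rises were mostly higher in the part that holds the lamellae, and the called falls mostly lower, though nearly even at a 4-fold threshold, with 49 higher and 53 lower. Mature cap with lamellae against mature stipe shares no library with the comparisons that define the classes. Of the 832 rises of the lamellae alone, 318 (38.2%) were higher and 93 (11.2%) lower in mature cap with lamellae, against 20.3% and 19.3% of all tested. The median log2 difference was 0.76 among the rises and -0.10 over all tested. Of the 462 falls, 88 (19.0%) were higher and 167 (36.1%) lower. Members shared with cap and stipe leaned the same way, with 124 (26.4%) of 469 rises higher and 78 (16.6%) lower, and 87 (15.5%) of 562 falls higher and 140 (24.9%) lower. Among lamellae-alone members found in both fits the shares were 40.5% and 11.5% for the rises and 19.9% and 36.4% for the falls. Gene models 391326 and 435526 were both higher in the mature cap with lamellae than in the stipe, with log2 differences of 4.12 ± 1.27 and 4.03 ± 0.66 (SE) and edgeR adjusted p-values of 0.00938 and 2.05e-05, although the first had risen in young lamellae and the second had fallen. In hyphal knots against mycelium, 139 (30.1%) of the 462 falls were higher and 49 (10.6%) lower, and 63 (7.57%) of the 832 rises were higher and 106 (12.7%) lower, against 11.0% and 8.98% of all tested.

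Some lamellae-alone gene models were called in the opposite direction in cap or stipe, in part at shares near those of all tested gene models. Of the 832 rises, 197 (23.7%) were lower than P2 in cap and 200 (24.0%) in stipe, against 20.7% and 21.1% of all tested. Both tissues were lower at 97 (11.7%), against 11.5% of all tested. Of the 462 falls, 199 (43.1%) were higher in cap and 109 (23.6%) in stipe, against 22.0% and 17.8%, and 58 (12.6%) in both, against 8.85%. The class holds no gene model called in the lamellae direction in either tissue and requires lamellae to differ from both, so these shares are descriptions. The remaining 532 rises and 212 falls were called in neither tissue. With the members found in both fits the counts for both tissues were 75 of 593 (12.6%) and 54 of 407 (13.3%).

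Rises shared by lamellae, cap and stipe were 469, and falls 562. Without lamellae replicate 1 they were 379 and 611, and 358 and 508 were in the class in both fits. The median log2 change in lamellae was 1.97 for the rises and -2.65 for the falls, of which 381 were at least 4-fold. The balance of this class rests on the scaling more than that of the lamellae alone, since library size alone gave 181 rises and 1030 falls. The median length of the falls was 1177 bases here and 1170 bases in the lamellae alone, against 1317 bases over all tested, and that of the rises 1422 and 1354.5 bases. The 358 rises found in both fits held 10.3% ± 0.731 of the reads in lamellae (SD, n = 3) and 2.40% ± 0.139 in P2 (SD, n = 4).

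Gene model 378691 rose in all 3 tissues. It stood at 32.6, 24.9, 22.6 and 32.7 CPM in P2 and at 4059, 1779 and 1768 CPM in lamellae, where replicate 1 was highest. The log2 change was 6.49 ± 0.46 (SE; edgeR adjusted p = 5.97e-10) and 5.97 without replicate 1. Cap and stipe rose to 1225 ± 428 and 1454 ± 546 CPM (SD, n = 3 each), by 5.44 ± 0.44 and 5.69 ± 0.45 (SE). The log2 difference between lamellae and cap was 1.05 ± 0.42 (SE), with an edgeR adjusted p of 0.0378. It was 0.54 and not called without replicate 1 (edgeR adjusted p = 0.286). The mature parts were lower than any young tissue, at 153 ± 73.6 CPM in cap with lamellae and 74.5 ± 7.14 CPM in stipe (SD, n = 3 each).

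Gene model 365445 was at its highest in the mature cap with lamellae. P2 held 2.91, 12.97, 2.62 and 1.94 CPM, with replicate 2 highest, and lamellae 926, 374 and 321 CPM. The log2 change was 6.72 ± 0.69 (SE; edgeR adjusted p = 5.41e-08), 6.08 without lamellae replicate 1 and 7.75 without P2 replicate 2. Cap stood at 625 ± 306 and stipe at 134 ± 78.5 CPM (SD, n = 3 each), with log2 changes of 6.93 ± 0.70 and 4.71 ± 0.64 (SE). Mature cap with lamellae held 4906 ± 2357 CPM (SD, n = 3), and each of its libraries exceeded every young library.

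Gene models 481285 and 546474 were nearly silent in the young tissues. The first had 3.59 to 20.7 CPM in P2, 2 reads in lamellae, both in replicate 3, and 0 reads in cap and stipe. It was 399-fold lower in lamellae, with an exact 95% counting interval of 110 to 3291. With 3 reads taken as the most that 0 reads over a group allow, it was at least 139-fold lower in cap and at least 216-fold lower in stipe. Without P2 replicate 1, which held the highest level, these values were 241, 84.2 and 131, and without lamellae replicate 1 and replicate 3 the first was 266 and at least 166. The cap value was 90.9 without cap replicate 1 and 88.6 without cap replicate 3, and the stipe value 121 without stipe replicate 1. Such intervals and floors cover counting error only.

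Gene model 546474 had 6.40 to 18.8 CPM in P2 and 1 read in lamellae, 3 in cap and 2 in stipe. It was 1035-fold lower in lamellae (exact 95% counting interval 186 to 40892), 181-fold lower in cap (61.8 to 876) and 421-fold lower in stipe (117 to 3477). The lamellae value was at least 216 without lamellae replicate 3, the cap value 118 and 384 without cap replicates 1 and 2, and the stipe value at least 157 without stipe replicate 1. The mature parts stayed as low, with 2 reads in cap with lamellae and 0 in stipe, while mycelium, knots and stage 1 primordia stood at 13.4 ± 9.32, 17.5 ± 12.9 (SD, n = 3 each) and 15.7 ± 2.87 CPM (SD, n = 4).

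**Figure D4:**
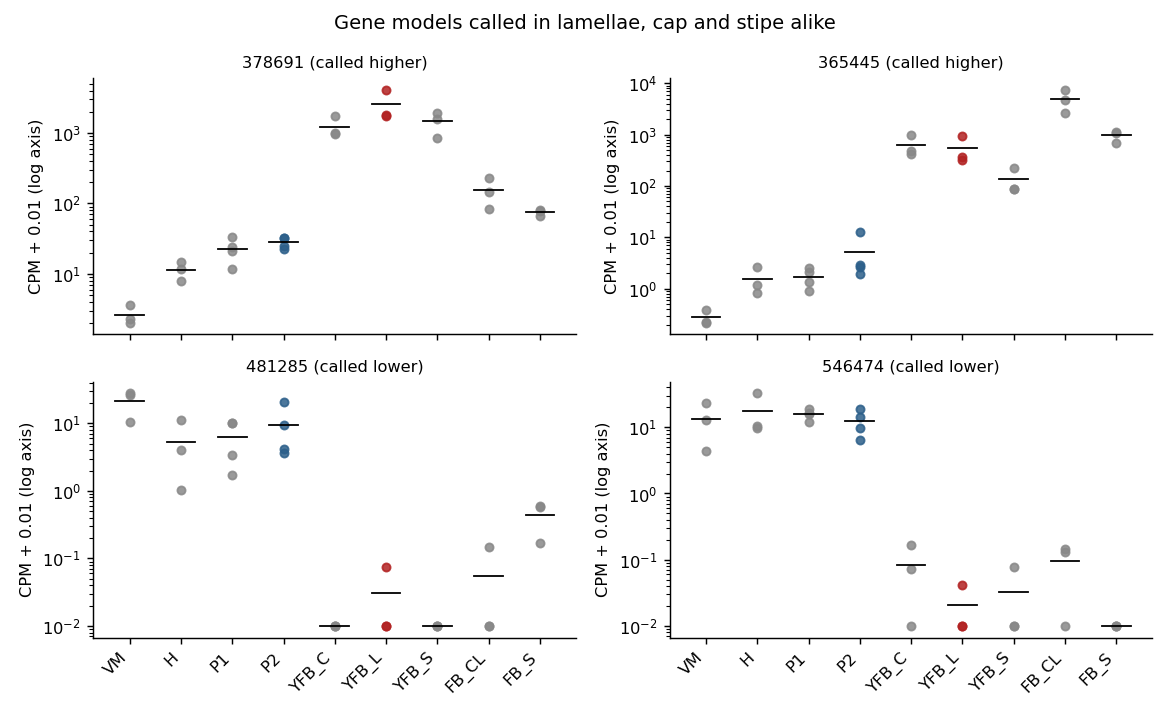
Each panel shows 1 gene model called in lamellae, cap and stipe, with a point per library on a log axis of CPM + 0.01, so that 0 reads lie at 0.01, and a black bar at the group mean. Gene models 378691 and 365445 step up from P2 (blue) to all young tissues (lamellae red), and 481285 and 546474 step down and stay low in the mature parts.

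Shared falls were far below P2 in the mature parts as well. The median member of the 508 falls found in both fits stood at -2.62 ± 0.13 in young lamellae, -2.61 ± 0.19 in mature cap with lamellae and -2.22 ± 0.10 in mature stipe relative to P2 on the log2 scale (SD, n = 3 each). The median of the 358 rises was 2.10 ± 0.34 in young lamellae and 1.32 ± 0.18 and 0.98 ± 0.12 in the same mature parts (SD, n = 3 each). The comparison of hyphal knots with mycelium shares no library with these comparisons. Of the 469 rises 93 (19.8%) were higher and 50 (10.7%) lower in knots, and of the 562 falls 91 (16.2%) were higher and 113 (20.1%) lower, against 11.0% and 8.98% of all tested. The balance of the falls turned, to 119 higher and 77 lower, with P1 in place of P2, to 106 and 85 with cap and stipe alone set against P1, to 95 and 88 without P2 replicate 2 and to 98 and 92 within a single flow cell.

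Rises shared with the cap but not the stipe were above P2 in the mature cap with lamellae as well. The median of the 253 members found in both fits was 2.04 ± 0.22 in lamellae, 1.75 ± 0.40 in cap and 0.30 ± 0.15 in stipe on the log2 scale relative to P2 (SD, n = 3 each). In mature cap with lamellae it was 1.42 ± 0.19 and in mature stipe 0.63 ± 0.12 (SD, n = 3 each). TMM factors were 0.436 to 0.504 in mature cap with lamellae and 0.610 to 0.652 in mature stipe, against 1.33 to 1.51 in P2. The medians of the mature parts relative to P2, here and above, depend on that scaling. Of the 407 rises in this class, 143 were not called without lamellae replicate 1. The rises shared with the stipe but not the cap had a median of 1.56 ± 0.035 in lamellae (187 members found in both fits) and the falls -2.59 ± 0.15 (341 members; SD, n = 3 each). For those falls the median was -0.65 ± 0.29 in mature cap with lamellae and -1.01 ± 0.027 in mature stipe (SD, n = 3 each).

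Over all classes, the rises that were largest both with and without replicate 1 were those of 377977 and 444563. Gene model 377977 went from 0.896, 1.01, 2.44 and 2.29 CPM in P2 to 3139.6, 2037 and 1721 CPM in lamellae (log2 change 10.44 ± 0.88 SE; edgeR adjusted p = 3.71e-09; 10.15 without replicate 1). In P2 444563 stood at 0.256, 0.402, 0.718 and 0.353 CPM and in lamellae at 354, 310.0 and 305 CPM (9.52 ± 0.73 SE; edgeR adjusted p = 1.23e-09; 9.44 without replicate 1). Both rose in cap and stipe too, to 112 ± 18.1 and 35.2 ± 36.1 CPM for the first and 6.56 ± 2.07 and 7.36 ± 7.78 CPM for the second (SD, n = 3 each), and lamellae lay above both tissues by log2 differences of at least 4.36 with all libraries and 4.07 without lamellae replicate 1. In stipe replicate 2 they were at 1.40 and 0.419 CPM, within the range of P2. The mature cap with lamellae kept 444563 at 201.0 ± 49.4 CPM and 377977 at 32.1 ± 9.62 CPM (SD, n = 3 each).

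The stipe libraries differed at the leading lamellae rises in the same order. For 391326, 468170, 377977 and 444563 stipe replicate 1 was highest, replicate 3 next and replicate 2 lowest. The 593 lamellae-alone rises took 0.878%, 0.474% and 0.804% of the reads of stipe replicates 1 to 3 and 0.648%, 0.512% and 0.361% of those of cap replicates 1 to 3. Whether lamellae tissue in some stipe or cap libraries had a part in these values was not tested.

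Among the falls, 547131 and 503005 were largest in both fits. The first stood at 12887, 6620.0, 3368 and 7823 CPM in P2 and at 0.819, 0.365 and 0.412 CPM in lamellae. Cap stood at 0.982 to 4.18 CPM. Stipe, at 1128, 244 and 2995 CPM, fell less but was also called lower than P2 (log2 change -2.40 ± 0.82 SE; edgeR adjusted p = 0.0183). The log2 change of lamellae against P2 was -13.80 ± 1.36 (SE; edgeR adjusted p = 2.94e-08) and -14.25 without replicate 1. Lamellae differed from stipe by -11.40 ± 1.27 (SE; edgeR adjusted p = 1.93e-07). The second stood at 367 to 1614 CPM in P2 and had 16, 1 and 0 reads in lamellae replicates 1 to 3. It was lower in lamellae than in cap and stipe as well (edgeR adjusted p = 0.000776 and 0.00295). Cap replicates 1 to 3 held 138, 195 and 0.999 CPM, and stipe replicates 1 to 3 held 16.1, 0.233 and 90.9 CPM. Stipe replicate 2 thus lay below lamellae replicate 1, at 0.570 CPM. Stipe was itself called lower than P2 (log2 change -4.50 ± 1.59 SE; edgeR adjusted p = 0.0209). The fitted log2 change of 503005 in lamellae against P2, -11.92 ± 2.25 (SE), became -15.05 without lamellae replicate 1, where 1 read was left.

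Calls lost without replicate 1 were mostly rises. Without it 609 of the 2219 rises and 218 of the 1919 falls were not called in that direction. Among the lost rises, replicate 1 was at least 4-fold above both other lamellae libraries at 279. The fit without it also holds fewer lamellae libraries, so a lost call need not rest on replicate 1. Gene model 443184 had 27536 reads, or 980.4 CPM, in lamellae replicate 1 and 0 reads in replicates 2 and 3 and in all 4 P2 libraries. Gene model 373888 had 2422 CPM in replicate 1 and 0.243 and 0.285 CPM in the others, against 0.192 to 0.281 CPM in P2. The log2 change of 373888, 11.72 ± 2.13 with all libraries (SE; edgeR adjusted p = 9.07e-05), was 0.18 without replicate 1 and no longer called (edgeR adjusted p = 0.919). Both were also higher in cap replicate 3, at 21.5 and 152 CPM, than in cap replicates 1 and 2, which held 0.131 and 0 CPM of the first and 2.36 and 2.42 CPM of the second.

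The leading falls lost without replicate 1 rested on a P2 library too. Gene models 51102 and 361222 were at 1.53, 5.84 and 2.31 CPM and at 0.392, 1.87 and 1.36 CPM in lamellae, where replicate 1 was the lowest. In P2 replicate 3 was far above the rest, at 392 CPM where the others held 5.25 to 44.3 CPM of 51102, and at 26.5 CPM where the others held 5.17 to 6.75 CPM of 361222. The log2 changes were -5.15 ± 1.79 for 51102 and -3.20 ± 1.17 for 361222 (SE), with edgeR adjusted p-values of 0.0214 and 0.0276. They came to -4.81 and -2.78 without lamellae replicate 1 and -2.75 and -2.30 without P2 replicate 3, not called in either case. Without lamellae replicate 3 they were -4.96 and -3.31, also not called.

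Gene models typical of cap and mature tissue summed to higher CPM in replicate 1 than in the other lamellae libraries. These sums are scaled by the TMM factor, 0.872 in replicate 1 against 1.32 and 1.36, so they are not shares of reads. In a fit without the lamellae libraries, gene models at least 4-fold above every other group numbered 149 for young cap, 66 for young stipe, 403 for mature cap with lamellae, 108 for mature stipe, 178 for mycelium, 16 for hyphal knots and 0 for either primordium. The 149 of the young cap summed to 75271 CPM in lamellae replicate 1 and to 10176 and 9190.1 CPM in replicates 2 and 3, where P2 libraries held 12503 to 17629 and the cap itself 132470 to 186040 CPM. The 403 of the mature cap with lamellae summed to 57466, 14334 and 13406 CPM, against 8006 to 14804 in P2. The list of the mature stipe summed to 7343, 2232 and 1952 CPM. The list of the young stipe summed to 5076, 4664 and 4491 CPM, that of mycelium to 2101, 1563 and 1459 CPM and that of hyphal knots to 231, 57.2 and 57.1 CPM. Of the 149 gene models of the young cap, 4, 6 and 5 had 0 reads in replicates 1 to 3. The median member of that list stood at 40.3, 12.0 and 9.89 CPM in these replicates. Medians differed less for mature cap with lamellae (13.6, 6.65 and 7.13 CPM) and mature stipe (9.67, 3.67 and 3.36 CPM). They were close for young stipe (12.5, 11.8 and 11.5 CPM). Replicate 1 had the lowest median for hyphal knots (1.71, 2.51 and 2.49 CPM) and mycelium (0.694, 0.791 and 0.840 CPM), although its sums were the highest. Whether cap tissue or a later stage had a part in replicate 1 was not tested.

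**Figure D5:**
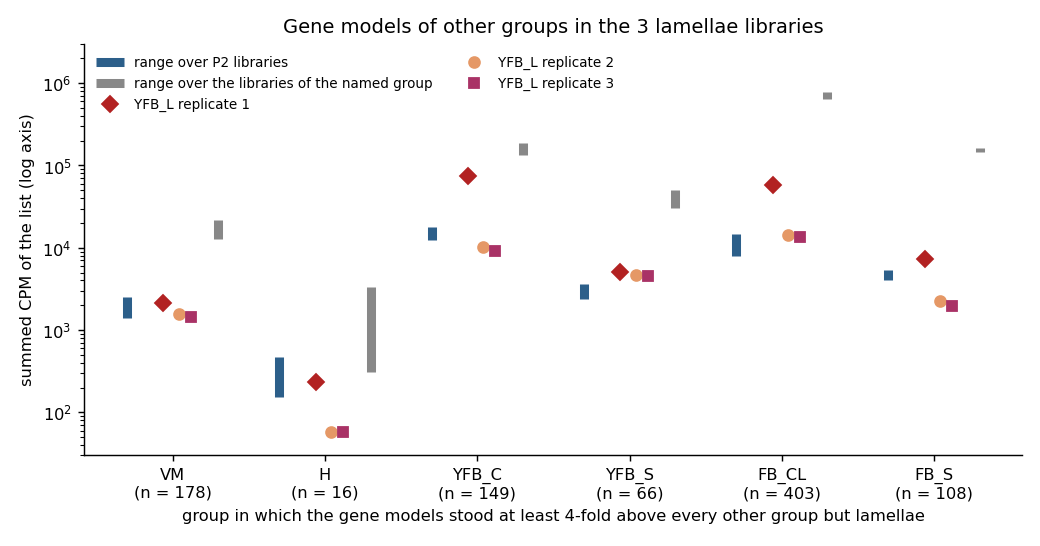
Summed CPM, on a log axis, of the gene models of each other group in lamellae replicates 1, 2 and 3 (diamond, circle, square), with the range over P2 libraries in blue and over the group's own libraries in grey. For the list of young cap, replicate 1 lies at 75271 CPM, above replicates 2 and 3 at 10176 and 9190.1 CPM and above the P2 range.

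Replicate 1 was also set beside the classes found without it, as a description, since those classes were chosen on the same P2, cap and stipe libraries. Of 742 gene models that were lamellae-alone rises without replicate 1 and tested in both fits, 540 (72.8%) lay above all 4 P2 libraries in replicate 1, 509 (68.6%) above all P2, cap and stipe libraries, and 55 (7.41%) below all P2 libraries. Over all tested gene models these shares were 40.3% and 19.9%. Of the 623 falls, 416 (66.8%) lay below all P2 libraries and 376 (60.4%) below all P2, cap and stipe libraries, against 37.9% and 15.5% of all tested, and 88 (14.1%) lay above all P2 libraries. Of the 379 shared rises, 372 (98.2%) lay above all P2 libraries, and of the 611 shared falls 512 (83.8%) lay below and 53 (8.67%) above all of them. As this is 1 library, no test was made.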

How the data were processed

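The deposited files hold, per the file headers, total and unique read counts and the length of 14242 gene models for each of 29 libraries and the authors' log2 RPKM of 12003 gene models. R 3.0.2, edgeR 3.4.2 and limma 3.18.13 are named in the submitters' processing notes; the sources used here give neither mapper nor assembly. Libraries were polyadenylated RNA made with an unstranded kit, per the labels' protocols, so reads of a gene and of one overlapping it on the other strand are counted together. Replicates of lamellae and P2 differed beyond sampling noise (chi-square per degree of freedom at least 31.5).

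Total counts were tested with edgeR 4.0.16 in R 4.3.3 (filterByExpr, TMM, 1 quasi-likelihood fit of all 29 libraries with a coefficient per group, Benjamini-Hochberg adjustment over 11990 gene models). The fit was also run on simulated data in which no library was made to stand apart, so that run does not cover the effect of lamellae replicate 1. The SE is the log2 change divided by the square root of F. Log2 CPM used a prior count of 2. In each of 4 sets, the 2 largest rises and 2 largest falls with at least 10 RPKM in the higher group were named. They were ranked by the smallest change over the fits with and without replicate 1 and, for both classes, over the tissue comparisons, among gene models with non-overlapping ranges. In the set resting on replicate 1 they were ranked by the change with all libraries. Members, classes and rules were chosen with earlier results of these data known. The class medians and read shares by library, the check of replicate 1 against classes found without it, and the counts of lamellae-alone members in knots were added after their values could be seen and are descriptions. Alternatives were DESeq2 1.42.0, limma 3.58.1 on log2(RPKM + 1) or log2(RPKM + 0.1), other scalings, filters, reads, thresholds, references and libraries, the replicate block and the flow cell. The lists of basidium, cap, stipe and hyphal markers could not be used without gene names.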

Additional observations from a re-analysis of the deposited data

Results flagged for a closer look

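Gene model 361222 had 1 P2 library far from the others. P2 replicate 3 held 26.5 CPM, and the gap to the next library was 0.838 of the group's range on the log2 scale, above Dixon's critical value for 4 samples. Of 15 gene models looked at in P2, 1 passed, and chance alone marks about that share.

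Lamellae and both other young tissues changed in opposite directions against P2 at 75 lamellae-alone rises and 54 lamellae-alone falls found with and without lamellae replicate 1. They are 12.6% of 593 and 13.3% of 407 members, where 11.5% of all tested gene models were lower and 8.85% higher in both tissues. The class requires lamellae to differ from both tissues, so the difference was not tested apart from that choice.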

How the results depend on the processing

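The counts of calls, of both classes and of class members called in the mature parts or in knots stayed within 1.5 times their value under the other alternatives that gave a value, except those given here. At 4-fold, 2076 gene models passed, 994 of them rises and 1082 falls. The lamellae alone then held 423 rises and 240 falls, of which 151 and 49 were higher and 16 and 53 lower in mature cap with lamellae than in mature stipe. Cap and stipe shared 108 rises and 255 falls, of which 11 and 38 were higher and 9 and 46 lower in knots than in mycelium. Library size alone gave 181 shared rises, 32 of them higher and 25 lower in knots, and 1030 shared falls, 201 of them lower. With limma on log2(RPKM + 1), 35 lamellae-alone rises were lower in mature cap with lamellae and 27 shared rises were lower in knots. Rises and falls shared with the cap but not the stipe numbered 176 and 445 with library size alone and 180 and 141 at 4-fold, and those shared with the stipe but not the cap 71 and 224 at 4-fold. Rises shared with the cap but not the stipe numbered 246 with limma on log2(RPKM + 1) and 240 without both lamellae replicate 1 and cap replicate 3. The cause was not tested. The fits to 7 or to 13 libraries gave no values for the mature parts or knots.

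Leaving out each of 13 libraries in turn gave 3910 to 4268 calls, 748 to 915 lamellae-alone rises, 368 to 623 lamellae-alone falls, 379 to 525 shared rises and 505 to 611 shared falls. Cap replicate 3 had a TMM factor of 0.564, against 0.887 and 0.809 in cap replicates 1 and 2. Without it alone, rises shared with the cap but not the stipe went from 407 to 279. Those shared with the stipe but not the cap went from 246 to 328, and unresolved rises from 265 to 351. Without both lamellae replicate 1 and cap replicate 3, 1975 were higher and 2320 lower. Same-numbered libraries of lamellae and P2 did not deviate together (r of -0.166, -0.0513 and -0.114 for replicates 1 to 3). Lamellae replicate 1 deviated with cap replicate 3 (r of 0.483) and against cap replicates 1 and 2 (-0.448 and -0.381). Deviations were taken from the mean of each group and cancel within a group, so these values are not independent of each other. So few pairs, with replicate 1 apart, cannot show whether the numbers pair the libraries. The fit with the replicate block called 4010, 2125 higher and 1885 lower. Of the 7 libraries only P2 replicate 4 ran on another flow cell, and a fit restricted to the flow cell of the rest called 2138 rises and 1902 falls. No named gene model reversed. Of the set resting on replicate 1, 443184 kept its call in 23 alternatives and lost it in 2. Gene model 373888 kept it in 23 and lost it in 4. The remaining alternatives gave no value for either of them. Gene models 51102 and 361222 lost their call in 6 and 3 alternatives. The other 12 kept theirs in all 30. Depth limits the falls to few reads, where sizes are bounds or wide intervals.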
